A study of Homo sapiens with 2 samples.

Results

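The genes described are the chemokine ligands and chemokine receptors of C4-2B cells, taken by name as the protein-coding genes whose symbols begin with CXCL, CCL, CX3C, XCL, XCR, CXCR, CCR or ACKR and a number. Of the 60671 genes in the count table, 66 met this rule, 44 ligands and 22 receptors. C4-2B is a cell line of castration-resistant prostate cancer, and 1 library was made from cells given vehicle and 1 library from cells given 1 µM (R)-9b, a small-molecule inhibitor of the tyrosine kinase ACK1, overnight. Both cultures were kept in medium with fetal bovine serum and antibiotics, and what the vehicle consisted of is not given in the sources used here. RNA sequencing was done to profile cytokine expression after (R)-9b. The sample labels name breast cancer as the cell type, but the prostate kallikrein genes KLK2 and KLK3 (prostate-specific antigen) had 19192 and 146597 counts in vehicle. Of 5 breast genes, ESR1 (oestrogen receptor) and SCGB2A2 (mammaglobin) had 2 and 0 counts in vehicle, PGR had 10, and the highest, SCGB1D2, had 34. A culture of 1 cell line holds no recruited cells, so migration towards a ligand was not measured here.

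Chemokines are small secreted proteins that guide leukocytes along a gradient. They are named by the spacing of their first cysteines, and they act on G protein-coupled receptors on the moving cell. Inflammatory chemokines are mostly encoded in clusters on chromosomes 4 and 17, where neighbouring genes tend to share a receptor, and are induced by NF-κB and interferon signalling. Tumour cells make chemokines that draw in T cells, monocytes or neutrophils, and they can carry receptors of their own, of which CXCR4 is the best known in metastasis to bone. The atypical receptors (ACKR) bind chemokines without G protein signalling and take them up.

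The vehicle library held 65207444 counts of uniquely aligned reads and the (R)-9b library 57653965, scaled here with the TMM method, and a ratio is always (R)-9b over vehicle. Each ratio has an exact 95% interval that covers counting error only. With 1 library per condition there was no replicate, so the intervals compare 2 libraries and not 2 conditions, and no p-value is given. A member was compared where its counts in the libraries came to 10 or more. Low counts were mostly even (35 of the 41 member counts from 1 to 20), as when a read pair adds 2 to the count, so intervals on halved counts, which are wider, are given beside the main ones. Mitochondrially encoded genes took 1.49% of the vehicle counts and 9.54% of those in (R)-9b, and other scalings shifted every log2 ratio by -0.060 to 0.036.

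The chemokine genes that were most raised in the (R)-9b library were ligands, and those most lowered were receptors. CXCL10, CXCL11, CCL20, CCL28 and CCL2 had a whole interval above 2-fold, and CXCR4 and CCR2 had a whole interval below it. Of the 66 members, 29 had 0 counts in both libraries, 13 had 1 to 9 counts in all and 24 were compared, 14 ligands and 10 receptors. Thus 5 of 24 were called higher beyond 2-fold, where the background over all 23446 genes compared was 4.2%, and 2 of 24 were called lower, against a background of 3.44%. Among genes with under 1000 counts, to which all 7 of these members belong, the backgrounds were 5.84% higher and 4.21% lower, and 22 members fell in this class. An interval that only excluded a ratio of 1 was found for 10 members on the higher side and 4 on the lower side. The backgrounds over all genes compared were 29.8% and 31.1%. A deeper count narrows the interval, so such a call depends on depth, and no background by depth was made for it. The median log2 ratio, with counts below 3 put at 3, was 1.61 over the 14 ligands, -0.17 over the 10 receptors and -0.0049 over all genes compared. The filter keeps a gene that is counted in either library, so these members are not all members. CXCL11, CCL28, CXCL3 and CCL2 reached 10 counts only through (R)-9b, with 0, 0, 1 and 2 counts in vehicle. CCR2 did so only through vehicle, with 2 counts in (R)-9b. The medians and the calls of these members are therefore not independent of the filter. With a minimum of 50 counts the median over all members compared was -0.16 in place of 0.24.

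**Figure D1:**
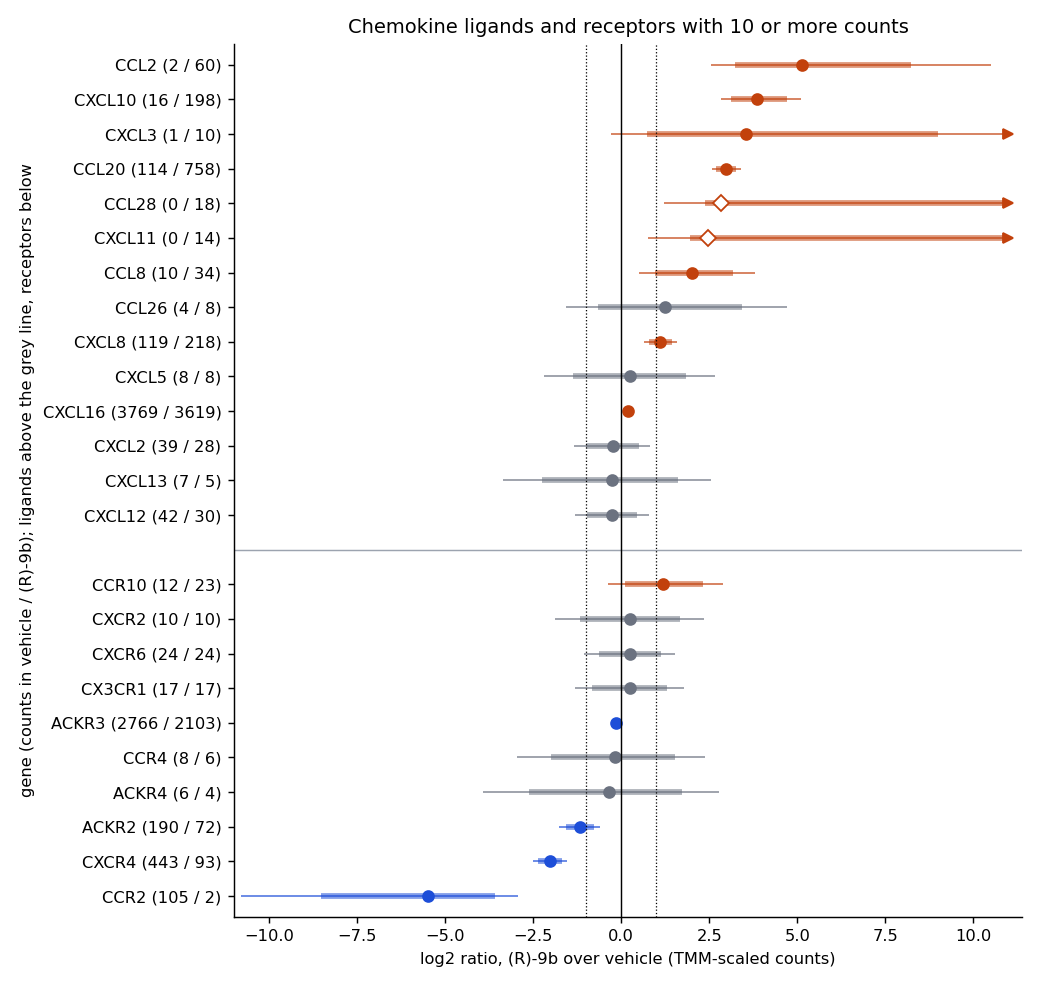
Log2 ratio of (R)-9b over vehicle for the 24 chemokine genes with 10 or more counts (x axis), ligands above the grey line and receptors below, with the counts of vehicle and (R)-9b beside each symbol. Thick bars are exact 95% counting intervals and thin bars the intervals on halved counts, open diamonds are lower bounds for genes at 0 in vehicle, arrows mark intervals that run on past the axis, dotted lines mark 2-fold, and orange, blue and grey mark intervals above, below and across a ratio of 1. CCL2, CXCL10, CCL20, CCL28 and CXCL11 lie wholly above the 2-fold line, and CCR2 and CXCR4 lie wholly below it.

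Upstream sequences are shown first for the called members, all but CCL2, which had no matched promoter. Several ligands were called higher together, and inflammatory chemokine promoters are known for NF-κB and interferon sites. RefSeq promoters of GRCh38.p14, 250 bases before to 50 after each start, were matched for 45 of the 66 members. Both strands were searched for the NF-κB consensus, the ISRE-like pattern (GAAA, any 2 bases, then GAAA) bound by interferon-activated factors, the GAS pattern TTCNNNGAA bound by STAT dimers and the AP-1 pattern TGANTCA. Each line below gives the 250 bases before the start, 5′ to 3′ on the strand of the gene, with all matches in capitals.
CXCL10, chr4:76023498-76023747, minus strand: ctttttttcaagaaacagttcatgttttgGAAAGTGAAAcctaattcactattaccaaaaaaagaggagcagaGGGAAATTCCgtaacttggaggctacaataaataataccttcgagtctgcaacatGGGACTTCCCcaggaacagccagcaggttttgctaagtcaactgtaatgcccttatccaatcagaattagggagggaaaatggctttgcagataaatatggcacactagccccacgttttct
CXCL11, chr4:76036071-76036320, minus strand: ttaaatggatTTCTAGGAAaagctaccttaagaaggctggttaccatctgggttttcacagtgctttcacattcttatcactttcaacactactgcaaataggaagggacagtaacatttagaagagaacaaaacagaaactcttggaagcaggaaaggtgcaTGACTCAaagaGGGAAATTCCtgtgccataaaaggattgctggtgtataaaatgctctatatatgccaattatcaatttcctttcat
CCL20, chr2:227813592-227813841, plus strand: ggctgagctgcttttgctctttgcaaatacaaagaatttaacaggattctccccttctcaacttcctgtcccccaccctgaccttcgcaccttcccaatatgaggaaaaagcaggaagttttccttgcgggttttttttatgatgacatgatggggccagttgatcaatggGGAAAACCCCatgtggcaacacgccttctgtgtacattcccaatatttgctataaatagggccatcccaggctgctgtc
CCL28, chr5:43412392-43412641, minus strand: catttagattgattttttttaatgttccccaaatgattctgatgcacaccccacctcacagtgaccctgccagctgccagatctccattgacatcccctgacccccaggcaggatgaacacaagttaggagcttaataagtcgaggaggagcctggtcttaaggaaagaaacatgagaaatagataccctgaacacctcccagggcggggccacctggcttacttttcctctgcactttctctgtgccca
CXCR4, chr2:136118150-136118399, minus strand: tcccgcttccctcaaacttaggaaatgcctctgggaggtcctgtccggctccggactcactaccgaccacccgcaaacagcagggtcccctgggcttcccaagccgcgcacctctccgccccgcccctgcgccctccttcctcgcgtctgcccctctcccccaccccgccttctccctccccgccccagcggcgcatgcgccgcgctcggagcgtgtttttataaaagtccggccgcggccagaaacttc
CCR2, chr3:46353861-46354110, plus strand: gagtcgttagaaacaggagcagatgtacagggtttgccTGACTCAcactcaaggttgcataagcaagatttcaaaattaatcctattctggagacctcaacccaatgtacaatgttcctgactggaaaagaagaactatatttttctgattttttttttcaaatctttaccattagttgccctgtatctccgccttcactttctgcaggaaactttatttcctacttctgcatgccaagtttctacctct

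The NF-κB consensus was found in 5.73% of all 27195 promoters and in 10 of the 45 member promoters. Of the 5 ligands called higher, all but CCL2 had a matched promoter, and 3 of these 4 (CXCL10, CXCL11 and CCL20) held the NF-κB consensus. In CXCL10 it began 177 and 122 bases before the start, in CXCL11 76 bases and in CCL20 79 bases before it. The ISRE-like pattern was found in 3.65% of all promoters and in 4 of 45 of the members. Of the 4 higher ligands only CXCL10 held it, 221 bases before the start. The other member promoters with it were those of CXCL9 and CCR6, with 0 counts in both libraries, and XCR1, with 4 and 2. The GAS pattern (7.89% of all promoters, 9 of 45 members) and the AP-1 pattern (7.73%, 8 of 45) each occurred in 1 of the 4, CXCL11. Its AP-1 match lies just upstream of its NF-κB match, and of its 2 GAS matches 1 lies after the start, outside the bases printed. CCL28 held none of the 4 patterns in this window. Of the 2 receptors called lower, CXCR4 held none and CCR2 held an AP-1 match 212 bases before the start. The NF-κB consensus also stood in 5 of the 6 promoters of the neutrophil ligands, those of CXCL1, CXCL2, CXCL3, CXCL5 and CXCL6, as 2 overlapping matches that began 77 to 91 bases before the start, and in CXCL5 and CXCL6 a GAS match overlapped them. The sixth promoter, that of CXCL8, which held most of the counts of this group, had no exact match to it and an AP-1 match 137 bases before the start. The CXCL8 window holds tggaatttcc, which differs from the consensus by 1 base, and such near matches were not counted in any promoter. CXCL6 had 0 counts in both libraries, and the interval of CXCL2 included a ratio of 1. These matches are letters in a window and were not tested for binding.

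The ligands of CXCR3, which draw activated T cells and NK cells, had the largest summed ratio of the ligand groups, with an interval that overlapped those of the monocyte and the mucosal ligands. The 3 genes stand side by side on chromosome 4 and made up 16 counts in vehicle and 212 after (R)-9b. Their summed log2 ratio was 3.97, with a 95% interval of 3.23 to 4.80 that widened to 2.93 to 5.21 on halved counts. CXCL10 (chr4:76021117-76023497) made up nearly all of this, with 16 and 198 counts. Its log2 ratio was 3.87 (3.13 to 4.70), and the level per length, in TMM-scaled CPM (counts scaled to the library size) per kilobase of exon, was 0.204 in vehicle and 2.98 after (R)-9b. CXCL11 (chr4:76033682-76041415), which binds the same receptor, had 0 counts in vehicle and 14 in (R)-9b. Against the 3 counts that a count of 0 allows, its level was at least 5.50-fold higher in (R)-9b, a bound that leaves out the counting error of the 14 counts. With that error included, its interval began at a ratio of 3.91, a log2 ratio of 1.97, and 0.77 on halved counts, with which the call beyond 2-fold was lost. CXCL9, which completes the cluster, had 0 counts in both libraries, which allows up to 0.0451 CPM in vehicle and up to 0.0531 CPM after (R)-9b. The receptor CXCR3 itself, borne by the recruited T cells, had 0 and 2 counts.

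The monocyte ligands of CCR2 made up 14 counts in vehicle and 94 in (R)-9b, a log2 ratio of 2.99 (2.17 to 3.91). CCL2 (chr17:34255218-34257203), the main monocyte attractant, had 2 and 60 counts. With so few counts in vehicle its ratio of 35.4 had a wide interval, 9.38 to 299, and on halved counts the log2 interval ran from 2.56 to 10.50. CCL8 (chr17:34319036-34321402), a related monocyte attractant, had 10 and 34 counts and a log2 ratio of 2.00 (0.95 to 3.19, and 0.51 to 3.80 on halved counts). The CCL8 interval lay above a ratio of 1 and reached just under 2-fold at its lower end. Of the remaining genes of the group, CCL7 had 0 counts in both libraries and CCL13 had 2 and 0. These genes share a cluster on chromosome 17 with CCL11 and CCL1, which were at 0 in both libraries.

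**Figure D2:**
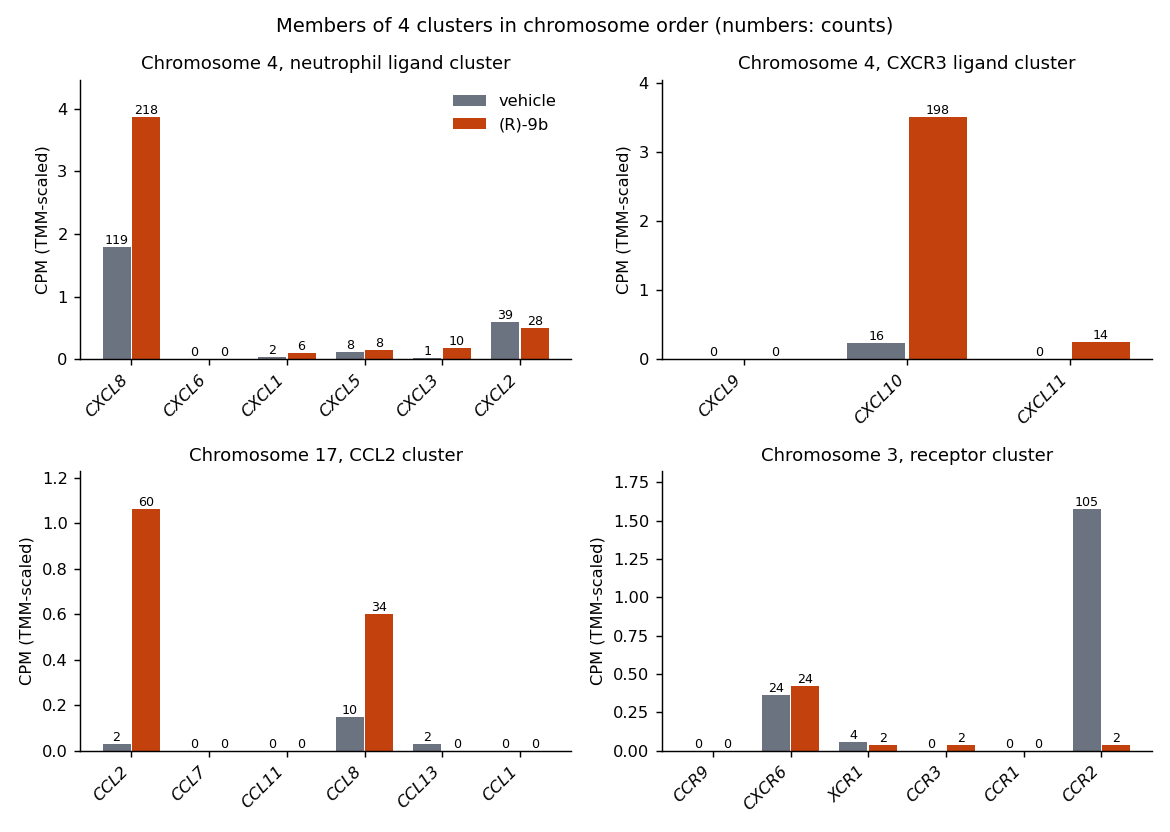
TMM-scaled CPM (y axis, from 0) in vehicle (grey) and (R)-9b (orange) for genes of 4 clusters, in chromosome order, with the counts above the bars and 1 library per bar. CXCL10, CCL2, CCL8 and CXCL8 are higher in (R)-9b, and in the receptor cluster CCR2 has 105 counts in vehicle and 2 in (R)-9b.

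The mucosal and skin ligands made up 114 counts in vehicle and 776 after (R)-9b, a ratio of 8.03 (log2 interval 2.72 to 3.30). CCL20 (chr2:227805739-227817564), the ligand of CCR6, which is borne by Th17 cells, B cells and immature dendritic cells, had 114 and 758 of these counts. Its log2 ratio of 2.97 had the narrowest interval of the 7 members called (2.69 to 3.27, and 2.57 to 3.40 on halved counts), and its level per length was 1.07 and 8.42. CCL28 (chr5:43376645-43412391), an epithelial chemokine for lymphocytes with CCR10, had 0 and 18 counts. By the same floor it was at least 7.08-fold higher in (R)-9b, and with the counting error of the 18 counts its interval began at a ratio of 5.18, a log2 ratio of 2.37, and 1.22 on halved counts. CCL25 and CCL27, the remaining genes of the group, had 0 counts in both libraries. Of the CCL27 exon bases, 99.0% are shared with other annotated genes, so that reads there would count as ambiguous.

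The neutrophil ligands, which carry the Glu-Leu-Arg motif and act on CXCR1 and CXCR2, made up 169 counts in vehicle and 270 in (R)-9b. Their summed log2 ratio was 0.91 (0.63 to 1.20). CXCL8 (interleukin-8, chr4:73740506-73743716) held most of them, with 119 and 218 counts, levels per length of 0.786 and 1.70 and a log2 ratio of 1.11 (0.78 to 1.45). Its interval lay above a ratio of 1 and included 2-fold. CXCL3 had 1 and 10 counts, a ratio of 11.8 with an interval of 1.68 to 512, and on halved counts this interval included a ratio of 1. CXCL2, the second in abundance in vehicle, had 39 and 28 counts, a log2 ratio of -0.24 whose interval, -0.995 to 0.497, included 0. CXCL5 had 8 counts in each library and CXCL1 had 2 and 6. Within this cluster on chromosome 4, CXCL8, at its end, held most of the counts gained, and the intervals of CXCL2 and CXCL5 included a ratio of 1.

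CXCL16 (chr17:4733526-4739922) was the most abundant chemokine gene of both libraries. It is a transmembrane ligand of CXCR6 and is shed from the surface by the protease ADAM10. It had 3769 and 3619 counts, with levels per length of 20.3 and 22.9 and a log2 ratio of 0.18 (0.11 to 0.25). The sign of this small difference was not kept in the deposited estimated transcript counts, which gave -0.33, and its interval included a ratio of 1 once a coefficient of variation of 0.1 was added to each library. CX3CL1, the other transmembrane chemokine, had 0 counts in both libraries. Its receptor CX3CR1 had 17 counts in each library, and CXCR6, the receptor of CXCL16, had 24 in each, log2 ratios of 0.24 with intervals from -0.82 to 1.30 and -0.64 to 1.12.

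The remaining ligand groups had few counts. CXCL12, the ligand of CXCR4 and ACKR3 that retains cells in bone marrow, had 42 and 30 counts, a log2 ratio of -0.25 (-0.97 to 0.46). CXCL13, which draws B cells to follicles through CXCR5, had 7 and 5 counts (-0.25, interval -2.25 to 1.62). The eosinophil ligand CCL26 had 4 and 8 counts (1.24, interval -0.66 to 3.42) and CCL24 had 6 and 3, while CCL11 was at 0. None of these intervals lay away from a ratio of 1. In the cluster on chromosome 17 that runs from CCL5 to CCL4L2 and includes the ligands of CCR1, the 11 genes had 8 counts in vehicle and 0 in (R)-9b. CCL18 held 4 of the 8, and CCL5 and CCL4 held 2 each. The upper end of the summed log2 interval was -0.53, and on halved counts 0.84, which includes a ratio of 1. CCL5, the T cell attractant often raised together with CXCL10, was thus not detectably higher at this depth. CCL3L3 and CCL4L2 are near-identical copies of CCL3 and CCL4, so that uniquely aligned reads can miss them, and 74.6% of the CCL3 exon bases are shared with an antisense gene. CCL21 and CXCL17 had 2 and 0 counts, and CCL1, CCL17, CCL22, CCL19, CXCL14, XCL1 and XCL2 had 0 in both libraries.

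Of the 10 receptors compared, 4 had an interval below a ratio of 1, 1 had an interval above it and 5 had an interval that included it. Over all genes compared, whatever their depth, the backgrounds for this call were 31.1% below and 29.8% above. The 6 CXC receptors made up 479 counts in vehicle and 131 in (R)-9b (log2 ratio -1.63, interval -1.92 to -1.35), and the 10 CC receptors made up 127 and 39 (-1.47, interval -2.02 to -0.94). A single gene, CXCR4 or CCR2, held most of the counts lost in each group. With the deposited estimated transcript counts, which list CXCR5, the CXC receptor sum moved to -0.18. CXCR4 (chr2:136114349-136118165), the receptor of CXCL12, had 443 and 93 counts. Its level per length was 2.99 in vehicle and 0.741 in (R)-9b, and its log2 ratio was -2.01 (-2.35 to -1.69, and -2.50 to -1.55 on halved counts). CXCR4 ranked 3 among the members by level per length in vehicle and 6 in (R)-9b.

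CCR2 (chr3:46353734-46360928), the receptor through which monocytes follow CCL2, had 105 counts in vehicle and 2 in (R)-9b. Its log2 ratio was -5.48 (-8.54 to -3.59), and on halved counts the upper end was -2.94. It stands in a receptor cluster on chromosome 3, which had 133 and 30 counts in all. Near it, CCR1 had 0 counts in both libraries, CCR3 had 0 and 2, CXCR6 24 and 24, XCR1 4 and 2, and CCR9 0 and 0. CCR2 was thus the gene of this cluster whose interval lay away from a ratio of 1, and the ligand CCL2 and its receptor lay on opposite sides of 2-fold. In RNA from a whole culture, fewer expressing cells and less RNA per cell cannot be told apart.

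CCR2 and other receptors are known mainly from leukocytes, and CXCR4 also from tumour cells, so 15 leukocyte markers were read beside them. PTPRC, the pan-leukocyte antigen CD45, had 0 counts in both libraries, as had CD3D and MS4A1. The summed level of the list was 364 CPM in vehicle and 331 CPM after (R)-9b, nearly all of it LCP1, which had 23797 and 18517 counts. Of the 8 markers compared, 2 were called lower beyond 2-fold, ITGAX with 136 and 15 counts and CD4 with 117 and 15, and none higher, beside a background of 3.44% lower. Their median log2 ratio was -0.59. An interval below a ratio of 1 was found for 4 of the 8 and above it for 1, beside backgrounds of 31.1% and 29.8%. LYZ went the other way, with 17 and 31 counts (ratio 2.15, log2 interval 0.21 to 2.05). The part of these markers in the CCR2 and CXCR4 values was not tested. CD14, the monocyte marker, had 0 and 2 counts. Of 5 stromal and endothelial markers compared, none was called beyond 2-fold in either direction, and the median log2 ratio was 1.02. An interval above a ratio of 1 was found for 3 of them and below it for 1. The backgrounds were 29.8% and 31.1% over all genes compared, whatever their depth. COL1A1 had 1114 and 2004 counts (log2 ratio 1.08, interval 0.98 to 1.19).

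CCR10, a receptor of CCL28 and CCL27, was the single receptor with an interval above a ratio of 1. It had 12 and 23 counts and a log2 ratio of 1.18 (0.11 to 2.32), but on halved counts the interval began at -0.37 and so included a ratio of 1. Of its exon bases, 31.3% are shared with genes on the opposite strand. CCR4 had 8 and 6 counts and CXCR2 had 10 in each library, with intervals across a ratio of 1. CCR7, XCR1 and CXCR1 had 2 and 6, 4 and 2, and 2 and 2 counts. CCR6, CCR8 and CXCR5 had 0 counts in both libraries, and 69.2% of the CCR6 exon bases are shared with another gene. Among receptors of ligands called higher, CXCR3, CCR6 and CCR10 were therefore at 23 counts or fewer in each library, whereas CCR2 had 105 in vehicle and the CXCL11 receptor ACKR3 had 2766 and 2103.

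**Figure D3:**
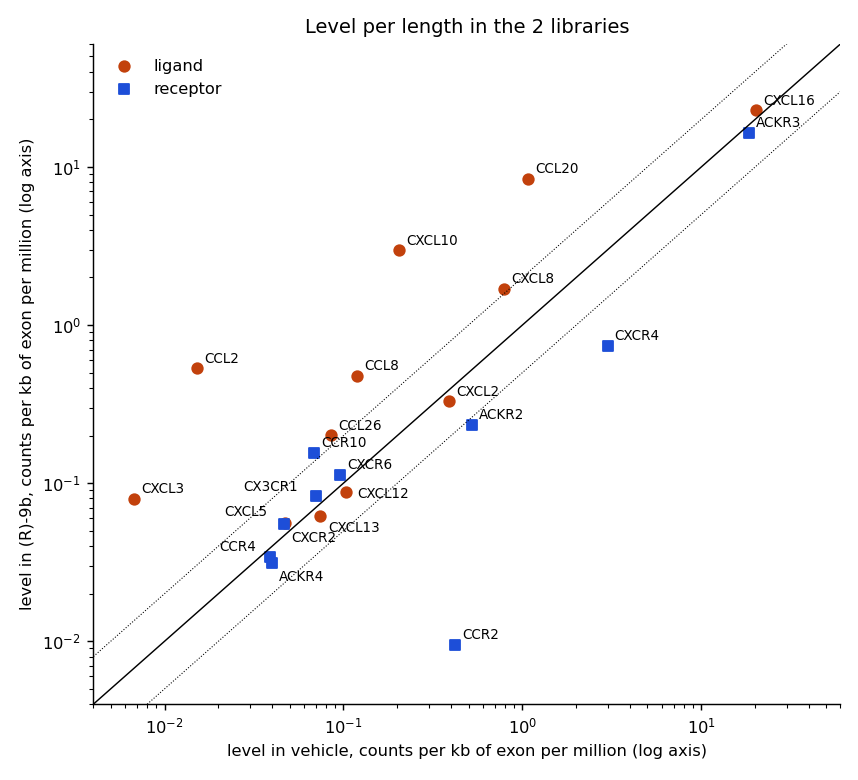
Level of each member in vehicle (x axis) and (R)-9b (y axis), in TMM-scaled CPM per kilobase of exon, on log axes, for the members compared with counts in both libraries. Circles are ligands, squares are receptors, the solid line marks equal levels and dotted lines mark 2-fold; CXCL16 and ACKR3 lie highest and near the solid line, and CCL20 and CXCL10 come next to them in (R)-9b.

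The atypical receptors made up 2962 counts in vehicle and 2179 in (R)-9b (log2 ratio -0.21, interval -0.29 to -0.12). ACKR3 (CXCR7, chr2:236567787-236582358), which takes up CXCL12 and CXCL11, held most of these. It had 2766 and 2103 counts, a level per length of 18.4 and 16.5 and a log2 ratio of -0.16 (-0.24 to -0.08), whose interval included 0 once a coefficient of variation of 0.1 was added. It was second only to CXCL16 in both libraries, and per length it exceeded CXCR4, which shares the ligand CXCL12, in vehicle and in (R)-9b. ACKR2 (chr3:42804752-42887974), a scavenger of inflammatory CC chemokines that include CCL2, had 190 and 72 counts, a log2 ratio of -1.16 (-1.57 to -0.76). The ACKR2 interval lay below a ratio of 1 and included 2-fold, and 25.2% of the exon bases of ACKR2 are shared with other genes. ACKR4, which takes up CCL19, CCL21 and CCL25, had 6 and 4 counts, and ACKR1, which binds chemokines on red cells and venules, had 0 in both libraries.

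The deposited estimated transcript counts, which are not scaled for library size, gave 21 transcripts with 10 or more over both libraries, from 15 members. CCL20 had CCL20-201, with 22.9 and 157, and CCL20-202, with 19.1 and 109, so that both transcripts were higher. CXCL10-201 had 4 and 65, CCL2-201 had 0 and 21.9, and CXCR4-201 had 149 and 36. The same direction as in the gene counts was thus seen for each of these genes. CCR2-204 had 26.2 and 0. For ACKR2 the transcript named also differed, with ACKR2-201 at 59.6 and 0 and ACKR2-202 at 0 and 19.0. CXCL16 was spread over CXCL16-203 (254 and 208), CXCL16-204 (161 and 128) and CXCL16-205, which had 84.7 in vehicle and 0 in (R)-9b.

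**Figure D4:**
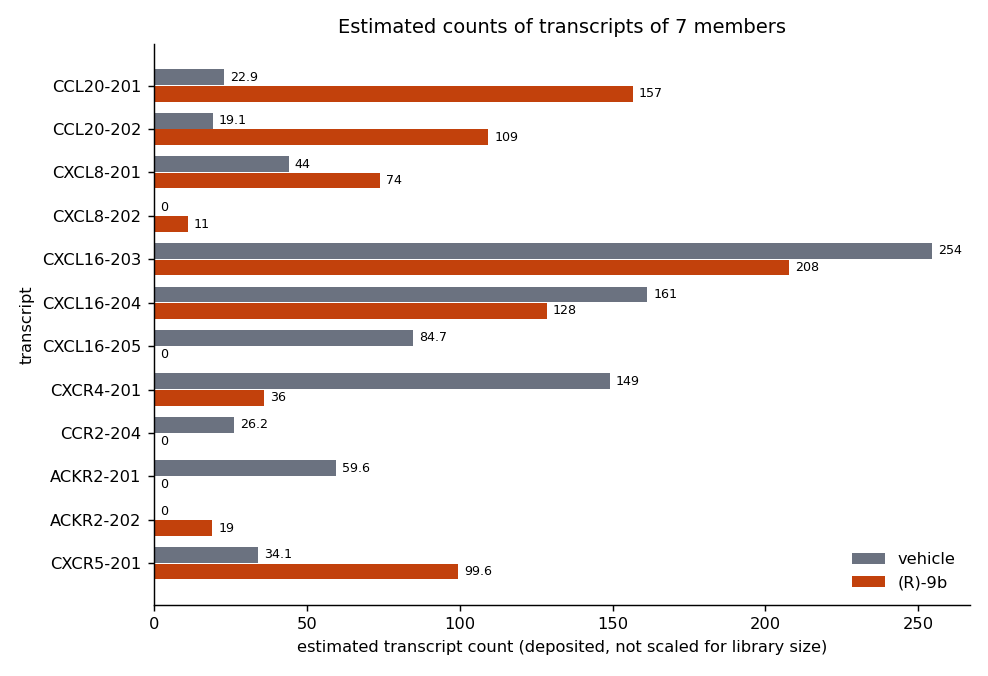
Deposited estimated counts (x axis, from 0, not scaled for library size) of 12 transcripts of 7 chemokine genes in vehicle (grey) and (R)-9b (orange), with the value at each bar and 1 library per bar. Both CCL20 transcripts are higher in (R)-9b, CXCR4-201 and CCR2-204 are lower, and CXCR5-201 has 34.1 and 99.6 although the CXCR5 gene count was 0 in both libraries.

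Other genes of the chemokine system were read from lists, with the same call, for which the background over all genes compared was 4.2% higher and 3.44% lower. Of 9 genes outside the naming rule 5 were compared, and 1 was called higher beyond 2-fold and none lower. This was CD74, the invariant chain and a receptor of MIF, with 16 and 143 counts (log2 ratio 3.40, interval 2.65 to 4.24). MIF had 22 and 8 counts, with an interval that reached a ratio of 1. The lowest by interval was CMTM3 with 12 and 2 counts (log2 interval -5.55 to -0.18), and on halved counts its interval included a ratio of 1. Of 9 chemokine-processing genes compared, 2 were called higher and none lower. SDC1, a heparan sulphate proteoglycan that holds chemokines at the cell surface, had 2742 and 5266 counts (1.18, interval 1.11 to 1.25), and FAP, a protease, had 0 and 11, a call that was lost on halved counts. ADAM17, a shedding protease, had 1372 and 709 counts (-0.71, interval -0.85 to -0.58). Of 17 receptor-signalling genes compared, 1 was called higher and 1 lower, close to the backgrounds of 4.2% and 3.44% over all genes compared. The gene called higher was the leukocyte Rac activator DOCK2 with 0 and 20 counts. The gene called lower was the G protein regulator RGS16 with 16 and 0, whose call was lost on halved counts.

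Of 17 transcriptional inducers and regulators, 3 were called higher beyond 2-fold and none lower, beside backgrounds of 4.2% and 3.44%. IRF9, part of the interferon-activated factor that binds ISRE sites, had 0 counts in vehicle and 30 in (R)-9b. It was at least 11.8-fold higher against the floor of 3 counts, and with the error of the 30 counts its log2 interval began at 3.17, or 2.08 on halved counts. NFKBIZ, an NF-κB cofactor, had 247 and 823 counts (log2 ratio 1.97, interval 1.77 to 2.19). NFKB2, which encodes the p100 and p52 subunit of NF-κB, had 4829 and 9766 (1.25, interval 1.20 to 1.30). At the other end, EZH2, the histone methyltransferase of PRC2, had 4007 and 1744 counts (-0.96, interval -1.04 to -0.88), and IRF1, an interferon-induced activator of chemokine genes, had 519 and 315 (-0.48, interval -0.69 to -0.28). The list as a whole had a median log2 ratio of 0.18 against -0.0049 over all genes compared.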

How the data were processed

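Poly-A RNA of 2 C4-2B libraries, vehicle and (R)-9b, was analysed. Samples were grouped by the treatment labels. The authors aligned read pairs with STAR (GRCh38) and deposited raw gene counts, which hold uniquely aligned reads that fall on 1 gene. The strand setting is not given in the sources used here, and the paper and the submitters' processing notes, which name STAR 2.5.1a, featureCounts 1.4.6-p5 and Salmon 0.8.2, differ in the version of STAR. The authors also deposited CPM and moderated log2 CPM of the genes, and estimated counts of transcripts, which were used as alternatives only.

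The 200 repeated lines were dropped. Counts were scaled with TMM (edgeR 4.0.16, R 4.3.3), and exact (Clopper-Pearson) 95% counting intervals of the ratios were computed for genes with a total of 10 or more counts (Python 3.11.15, scipy 1.17.1, numpy 2.4.6, pandas 2.3.3, matplotlib 3.10.9). A call required the whole interval beyond 2-fold. Reads that share a molecule could not be told apart, so intervals cover counting error only. Levels per length used the exon bases of GENCODE 29, which held all 66 members and 96.3% of the genes listed, and clusters joined members within 1 Mb. A median used 3 counts in place of fewer. Totals of 65207444 and 57653965 counts put the floor of 3 counts at 0.0451 and 0.0531 CPM. The script was tested on simulated data. Alternatives were total counts, DESeq2 1.42.0 size factors, the upper quartile, TMM without mitochondrially encoded genes, halved counts, an added coefficient of variation of 0.1, estimated transcript counts, the deposited CPM and moderated log2 CPM, 5 added counts, minimum counts of 1 and 50, and the point ratio as call.

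Every member was named or counted, some items are not reported here, and from each other list at most 4 genes were named, the highest and lowest by the interval end nearest 0. NFKB2 was named besides, after its values were seen, as was MIF, and markers were given more fully. The members, the ligand groups by recruited cell and the other lists were chosen with earlier results of these data known.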

Additional observations from a re-analysis of the deposited data

Results flagged for a closer look

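CXCR5, the B cell receptor of CXCL13, had a gene count of 0 in both libraries. Its estimated transcript count was 34.1 in vehicle and 99.6 after (R)-9b, a signal in data outside the gene counts. Of the CXCR5 exon bases, 88.6% (3925 of 4431) are shared with BCL9L on the opposite strand, where reads counted without strand are ambiguous between the genes. The part of BCL9L reads in the estimate was not tested.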

How the results depend on the processing

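No replicate could be left out, and no paired analysis was possible because there was 1 library per condition, so what varies between cultures is unknown. The number of members called beyond 2-fold was 5 higher and 2 lower with each of the 4 other scalings, 4 and 2 on halved counts and 4 and 2 with estimated transcript counts. A minimum of 50 counts, which leaves fewer genes, gave 3 members higher beyond 2-fold and 5 with an interval above a ratio of 1, and the median log2 ratio of the members compared turned from 0.24 to -0.16. The point ratio as call gave 10 higher and 3 lower. With estimated transcript counts 6 members in place of 10 had an interval above a ratio of 1, CCL28 and CXCL11 fell under 10 counts while CXCR5 entered the calls, the median was 0.025, and the log2 ratio turned to -0.33 for CXCL16 and for the transmembrane ligands that it makes up. The same table moved CXCL5 to 2.25 and the summed CXC receptors to -0.18, where it lists CXCR5. The other 67 group sums and 215 values of single members lay inside the counting interval of the value reported. Those from halved counts and from the added coefficient of variation did so by construction, since both leave the ratio unchanged. The deposited CPM gave the same ratios as total counts and so added no separate check. Halved counts ended the calls against a ratio of 1 of CXCL3 and CCR10, and an added coefficient of variation of 0.1 those of CXCL16 and ACKR3. Depth limits most the members under 20 counts, whose intervals span several fold.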
